A study of Sus scrofa with 5 samples.

Results

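Expression of 9 genes of itch signalling was followed through the nuclei of pig dorsal root ganglia, which hold the cell bodies of sensory neurons. They are IL31RA, OSMR, IL6ST and JAK1 (cytokine receptor subunits and their kinase), CYSLTR2, HRH2 and HTR1F (receptors for leukotrienes, histamine and serotonin), IL1R1 (an interleukin-1 receptor) and IL33 (a cytokine). They were taken by name, and all 9 had a row among the 30477 genes of the count table. Thoracic and lumbar ganglia came from 5 male Landrace pigs, 80 mg of tissue per sample, in a single group for which the labels name no treatment. Nuclei were freed with 1 of 2 detergents and separated by filtration, by density gradient or by enrichment for NeuN, a protein of neuronal nuclei. In all, 17277376 unique molecular identifiers (UMIs, each standing for 1 captured RNA molecule) were counted in 2189 nuclei. Barcode endings marked 6 libraries, which could not be matched to individual pigs or isolation protocols.

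The nuclei were therefore 1 pooled sample. No test was run, a fold refers to these pooled nuclei, and 95% intervals reflect counting error alone, with no measure of how the animals varied. Levels are UMIs of a gene per 1000000 UMIs of a group (CPM).

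The receptor for the cytokine interleukin-31, a messenger of itch released by T cells, is a pair of IL31RA and OSMR, and it signals through Janus kinases, JAK1 among them. OSMR also pairs with IL6ST (gp130), the subunit shared by the interleukin-6 family, to form a receptor for oncostatin M. Small-diameter sensory neurons that carry itch signals are known in mice for receptors of this kind, beside receptors for histamine, serotonin and leukotrienes. Most large-diameter neurons of the ganglion serve touch and the sense of position.

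In the pig genome build Sscrofa11.1, as RefSeq annotates it, IL31RA spans chr16:34987399-35071367 and IL6ST chr16:35101304-35151832, with 29936 bases between them. OSMR lies on the same chromosome at chr16:24041312-24101842 and overlaps 2 long non-coding RNA genes. JAK1 spans chr6:147320288-147567188, CYSLTR2 chr11:18988665-19011015, HRH2 chr2:81883670-81932464, HTR1F chr13:167951444-167987391, IL1R1 chr3:52192912-52334734 and IL33 chr1:215899830-215941944. Counts are per gene and nucleus, with exons and introns not told apart in the table.

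Nuclei were clustered without the 9 genes and without the pathway genes listed further on, and each cluster took the marker gene that led it. TRPM8 (a cold-sensing channel) led clusters with 416 nuclei, GFRA2 (a receptor for neurturin) 216, and ADCYAP1 (the neuropeptide PACAP) 502, together called small-fibre groups here. NTRK2, NTRK3 (receptors for neurotrophins) and PVALB (a calcium-binding protein) led clusters with 112, 172 and 210 nuclei, called large-fibre groups. KIT, a receptor tyrosine kinase, led 196 nuclei, and 365 nuclei lay in 4 clusters that no marker led, called unmarked. The markers chose the groups, so a marker's high level in its own group is no finding. They were not exclusive: NTRK2 stood at 1205 CPM in its own group, and at 504 CPM in NTRK3, 397 CPM in KIT and 342 CPM in PVALB nuclei, and TRPM8 at 863 CPM in its own group and 235 CPM in the KIT group.

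The 4 unmarked clusters were of 2 kinds. IL31RA was among the 5 leading genes of 3 of them, with 72, 79 and 113 nuclei, and this was seen from the same counts, so their IL31RA level is a description. In this sense they are called led by IL31RA, though in the cluster of 113 nuclei KCP and TRPC6 ranked above IL31RA. RGS3, a regulator of G protein signalling, led beside it in all 3. The fourth cluster, with 101 nuclei, was led by UNC5D, RNF150, TOX3, TRPV1 and TOX2. The 3 clusters split by library: 71 of 72 nuclei came from library 1, 73 of 79 from library 3, and 111 of 113 from libraries 5 and 6 (60 and 51).

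Libraries differed in depth, with medians from 676 UMIs per nucleus in library 2, which held 13 nuclei, to 12038 in library 6. Mitochondrial genes gave 0.0709% of UMIs in library 6 and 24.3% in library 3. All 6 neuronal markers (RBFOX3, SNAP25, ELAVL4, UCHL1, TUBB3, SCN9A) were detected in every marker group, at summed levels from 3408 to 11902 CPM. Markers of satellite glia, the cells that wrap these neurons, summed to 371 to 2558 CPM, highest in the PVALB group (2558 CPM) and the TRPM8 group (1450 CPM). They summed to 513 CPM in the 3 clusters led by IL31RA. Those of 72, 79 and 113 nuclei were at 1193, 260 and 298 CPM, and the fourth unmarked cluster was at 1603 CPM. The part of these glial markers in the levels below was not tested. Of 4 mast cell markers 2 had a row, and these summed to 27.98 CPM or less in every group. The TRPM8 group included 297 shallow nuclei (median 1437 UMIs), 292 of them from library 1.

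IL31RA, the subunit that gives the receptor its specificity for interleukin-31, had 4606 UMIs, of which 81.8% lay in the unmarked nuclei. Its level was 893 CPM there (864 to 922), 163 CPM in the ADCYAP1 group, 58.5 CPM in the TRPM8 group and 50.5 CPM in the GFRA2 group. It was 16.9 CPM in the NTRK3 group, 12.2 in KIT, 10.5 in NTRK2 and 8.53 in PVALB, and these last 4 intervals overlapped. The TRPM8 and GFRA2 groups also overlapped, while each step from unmarked to ADCYAP1 and from ADCYAP1 to TRPM8 was apart.

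**Figure D1:**
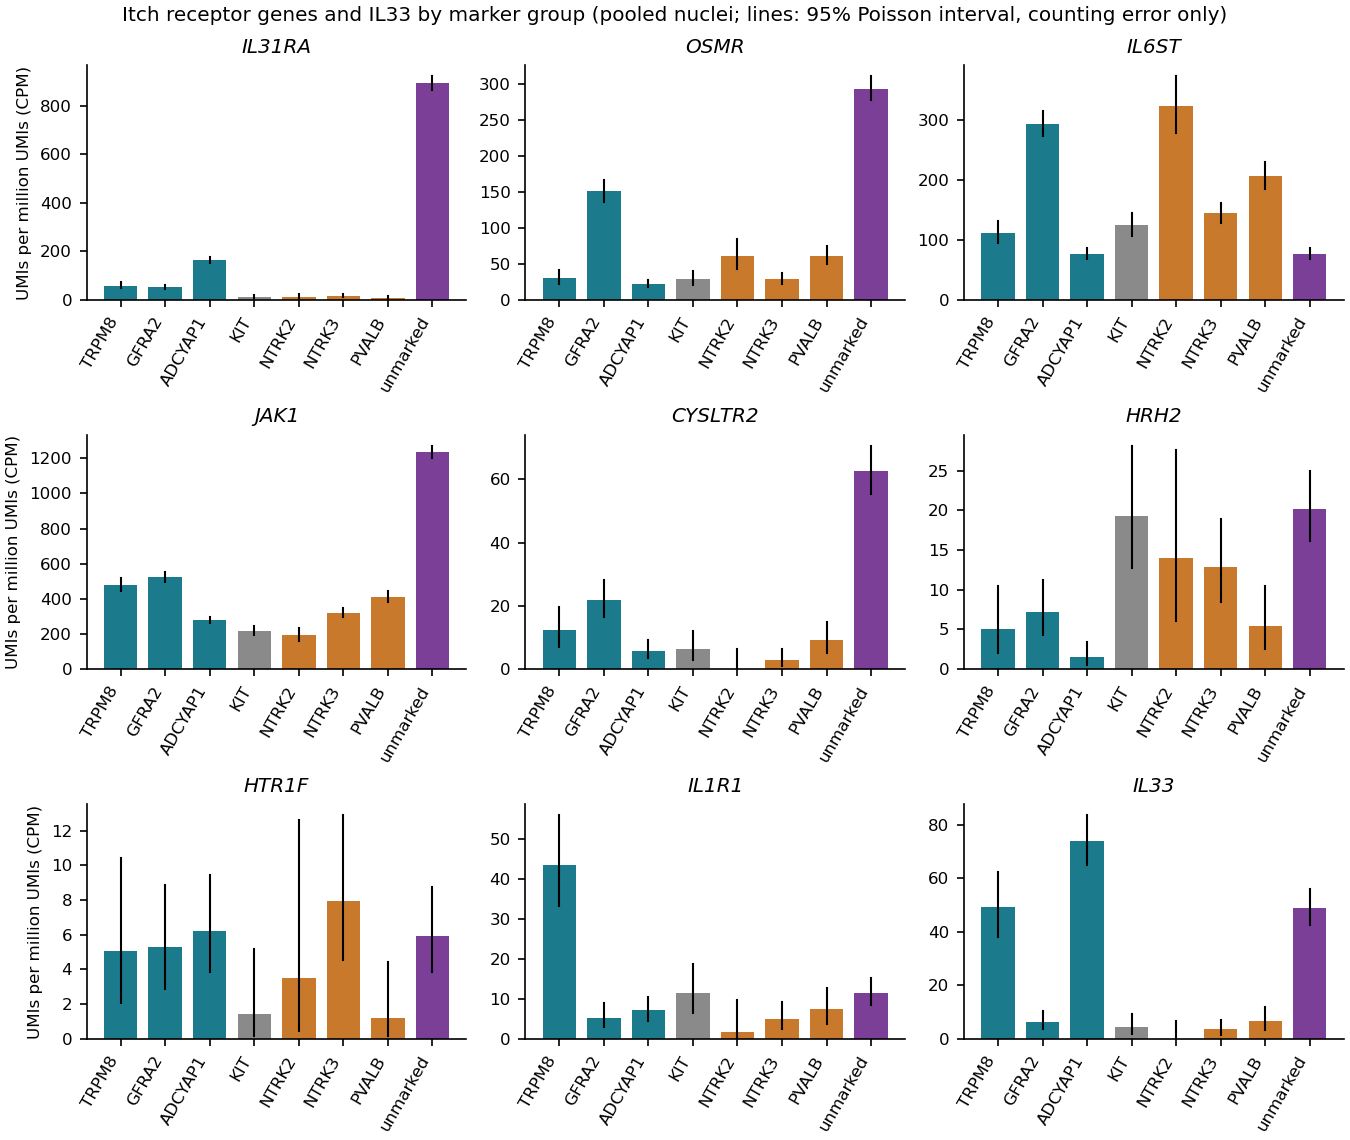
Level of each of the 9 genes (vertical axis, CPM, a separate linear scale per gene starting at 0) in the 8 groups (horizontal axis). Bars are pooled nuclei, lines exact 95% Poisson intervals, teal small-fibre groups, orange large-fibre groups, grey KIT and purple unmarked. IL31RA, OSMR, JAK1 and CYSLTR2 were highest in unmarked nuclei, IL6ST was 77.0 CPM there against 324 CPM in the NTRK2 group, IL1R1 was highest in the TRPM8 group at 43.4 CPM and IL33 in the ADCYAP1 group at 73.7 CPM.

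Within the unmarked nuclei IL31RA was at 1045 CPM in the 3 clusters it led and at 14.4 CPM in the fourth. The 3 clusters stood at 1640, 1635 and 659 CPM, the last being the one from libraries 5 and 6. One nucleus of library 2, with 269590 UMIs, held 854 of the IL31RA UMIs. Without nuclei above 50000 UMIs the level in unmarked nuclei was 816 CPM. In the TRPM8 group 65 of the 81 UMIs came from the shallow cluster, at 124 CPM, against 18.6 CPM in its other nuclei.

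The same order held in part within libraries. IL31RA in unmarked nuclei was 889, 1242, 570 and 649 CPM in libraries 1, 3, 5 and 6. In the ADCYAP1 group it was 86.0, 148, 164 and 224 CPM in the same 4 libraries, below the unmarked nuclei in each. In the TRPM8 group it ranged from 0 UMIs in library 3 to 122 CPM in library 1, which was above the ADCYAP1 group of that library by point value, with overlapping intervals.

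At least 1 IL31RA UMI was found in 66.0% of unmarked nuclei (median 6588 UMIs) and in 5.36% of NTRK2 nuclei (median 4484 UMIs), the lowest share of any group. After each nucleus was thinned to 1000 UMIs, with 125 shallower nuclei left out, the shares were 43.1% (154 of 357) and 1.05% (1 of 95). Thinning left 58.8% in the 3 clusters led by IL31RA.

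OSMR, the second subunit of the interleukin-31 receptor and of an oncostatin M receptor, was also highest in unmarked nuclei but had another second place. Its level was 294 CPM there (278 to 311), then 151 CPM in the GFRA2 group (137 to 167), 61.5 CPM in PVALB and 61.2 CPM in NTRK2. The TRPM8, KIT, NTRK3 and ADCYAP1 groups lay between 22.4 and 30.4 CPM, with overlapping intervals. The TRPM8 value came mostly from the shallow nuclei of that group, without which OSMR stood at 8.15 CPM there (3.28 to 16.8; 7 UMIs), below each other group. The ADCYAP1 group, second for IL31RA, was at 22.4 CPM for OSMR: unmarked nuclei exceeded it 13.1-fold (10.4 to 16.8), and the GFRA2 group exceeded it 6.75-fold (5.27 to 8.74). In the GFRA2 group OSMR was 125 to 201 CPM in the 4 libraries with 10 or more nuclei of that group. The 4 clusters of the group differed more. OSMR was 315 CPM in the cluster of 38 nuclei, 188 in that of 78, 95.3 in that of 30 and 52.2 in that of 70. The clusters of 38 and 70 nuclei both came almost wholly from libraries 5 and 6. In that of 38 nuclei OSMR (272 to 362) was above the IL31RA-led cluster of the same libraries, at 223 CPM (204 to 244). In unmarked nuclei OSMR was 464 CPM in library 1 and 201 to 235 CPM in libraries 3, 5 and 6. In library 5 and library 3 the intervals of the GFRA2 group and the unmarked nuclei thus overlapped. The nucleus of library 2 with 269590 UMIs held 271 of the OSMR UMIs. Without nuclei above 50000 UMIs OSMR was 271 CPM in unmarked nuclei and 177 CPM in the GFRA2 group.

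**Figure D2:**
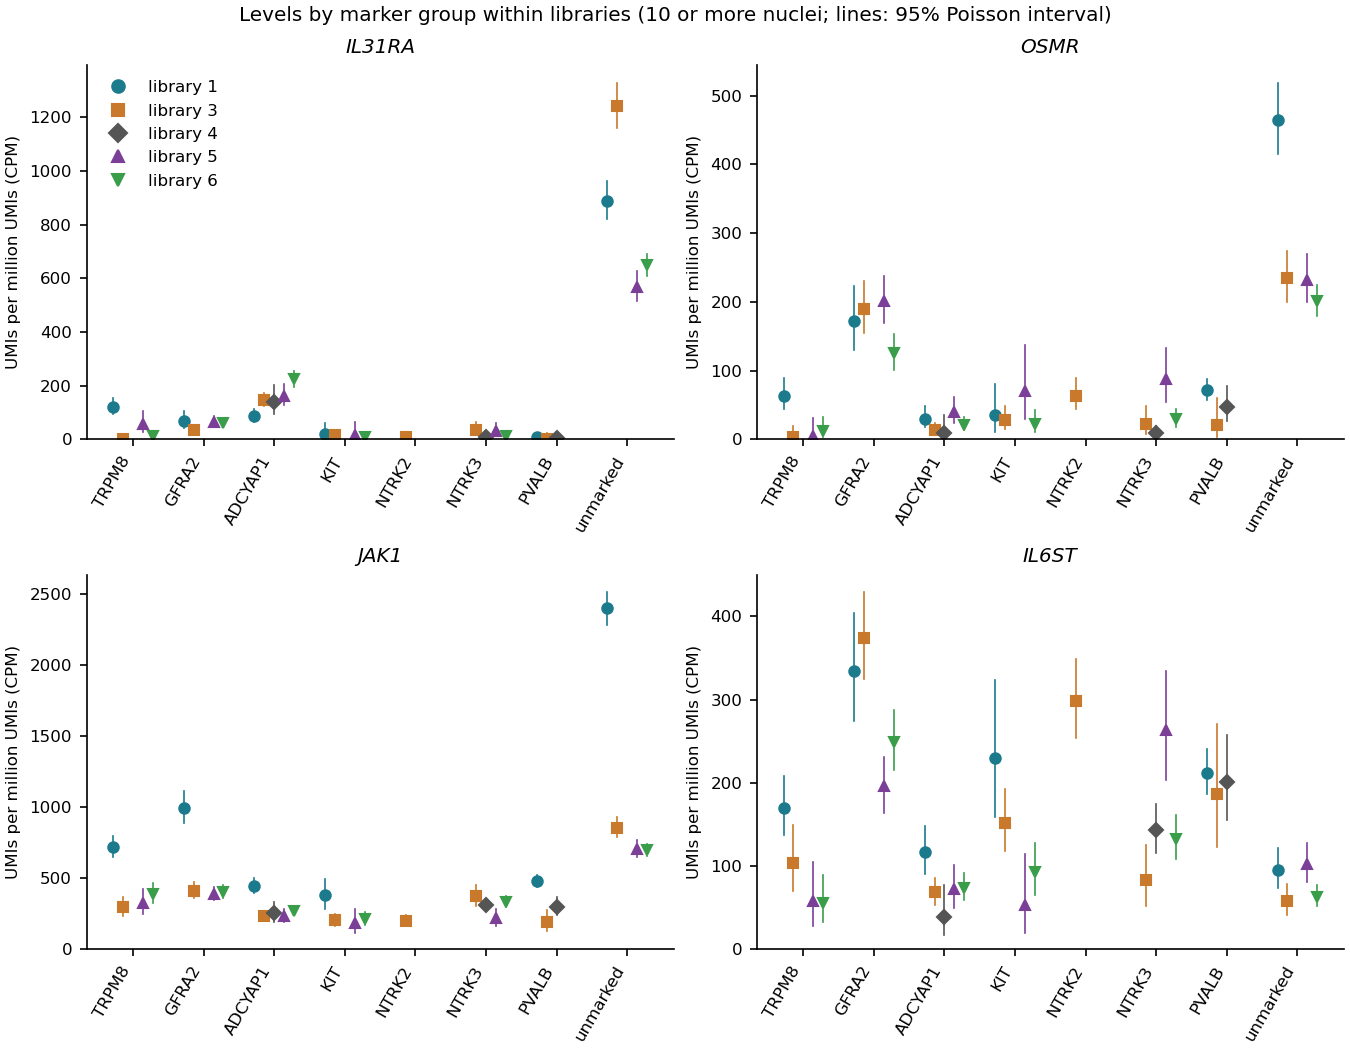
Level of IL31RA, OSMR, JAK1 and IL6ST (vertical axis, CPM, linear from 0) in each group (horizontal axis) within each library with at least 10 nuclei of the group. Points are libraries and lines exact 95% Poisson intervals; IL31RA and JAK1 in unmarked nuclei were above every other group in each of 4 libraries, and JAK1 in unmarked nuclei was 2397 CPM in library 1 against 695 to 853 CPM in the others.

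IL6ST, the shared subunit gp130, did not follow IL31RA. It was highest in the NTRK2 and GFRA2 groups, at 324 CPM (279 to 374) and 294 CPM (274 to 315), whose intervals overlapped. The PVALB group followed at 207 CPM, the NTRK3, KIT and TRPM8 groups at 145, 124 and 112 CPM. As whole groups, unmarked nuclei and the ADCYAP1 group were lowest, at 77.0 and 76.9 CPM. The TRPM8 group without its shallow nuclei was at 75.7 CPM (58.4 to 96.5), and this interval overlapped both. The GFRA2 group exceeded the unmarked nuclei 3.82-fold (3.35 to 4.36). Without nuclei above 50000 UMIs IL6ST was 270 CPM in the GFRA2 group and 77.7 CPM in unmarked nuclei. As pooled levels, the GFRA2 group thus had OSMR at 151 CPM and IL6ST at 294 CPM. The 3 clusters led by IL31RA had OSMR at 344 CPM (325 to 363) and IL6ST at 78.2 CPM. Both OSMR and IL6ST were found in 5 of 213 thinned GFRA2 nuclei (2.35%), and in 96 of 216 without thinning. This pair was not particular to the GFRA2 group. The 3 clusters led by IL31RA had both in 8 of 260 thinned nuclei (3.08%), and in 105 of 264 without thinning. After thinning the PVALB and NTRK2 groups had both in 2.40% and 2.11% of nuclei. Over the GFRA2 clusters of 38, 78, 30 and 70 nuclei IL6ST was at 202, 375, 386 and 241 CPM, an order unlike that of OSMR. The IL6ST interval of the unmarked nuclei lay below that of the GFRA2 group in libraries 1, 3, 5 and 6. Of the 112 NTRK2 nuclei 95 came from library 3.

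JAK1, the kinase bound to these receptors, was found in every group and was highest in unmarked nuclei at 1237 CPM (1203 to 1271). GFRA2 (526 CPM) and TRPM8 (481 CPM) followed with overlapping intervals, then PVALB at 411, NTRK3 at 321, ADCYAP1 at 280, KIT at 220 and NTRK2 at 192 CPM. Without its shallow nuclei the TRPM8 group was at 332 CPM (295 to 373), below the PVALB group (381 to 444). Library 1 stood apart: its unmarked nuclei reached 2397 CPM, and JAK1 was also higher there than in the other libraries in the TRPM8 group (717 CPM), the GFRA2 group (994 CPM) and the ADCYAP1 group (443 CPM). In libraries 3, 5 and 6 the unmarked nuclei stood at 853, 706 and 695 CPM, still above each other group of the same library. The same deep nucleus of library 2 held 1309 JAK1 UMIs, and the level was 1092 CPM without nuclei above 50000 UMIs. JAK1 overlaps RAVER2 in the annotation; RAVER2 was at 18.2 CPM in unmarked nuclei and highest in the NTRK3 group at 105 CPM.

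CYSLTR2, a receptor for cysteinyl leukotrienes, had 389 UMIs, 67.9% of them in unmarked nuclei, at 62.6 CPM (55.2 to 70.6). The GFRA2 group followed at 21.9 CPM and overlapped the TRPM8 group at 12.3 CPM, which was 6.99 CPM without its shallow nuclei. No UMI was found in the NTRK2 group, where 3 counts, the limit used here for a count of 0, are 5.25 CPM, and the exact interval drawn in the plot of levels by group reaches 6.45 CPM. In unmarked nuclei it was 113, 70.6, 37.0 and 38.2 CPM in libraries 1, 3, 5 and 6, above the GFRA2 group of the same library by its point value in each.

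HRH2, a histamine receptor, had 186 UMIs and was at 20.1 CPM in unmarked nuclei, 19.3 in KIT, 13.99 in NTRK2 and 12.9 in NTRK3, with overlapping intervals. It was 1.47 CPM in the ADCYAP1 group (0.479 to 3.44; 5 UMIs), where IL31RA was second highest. HTR1F, a serotonin receptor, had 89 UMIs in all. Its levels ran from 1.22 CPM in PVALB to 7.93 CPM in NTRK3, neighbours in the order overlapped throughout, and at this depth no group could be set apart from its neighbour.

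IL1R1, the signalling receptor for interleukin-1, had another pattern. It was 43.4 CPM in the TRPM8 group (33.1 to 55.8; 60 of 185 UMIs) and 11.4 CPM or less in every other group, a ratio of 5.51 (3.98 to 7.56) over all other nuclei. It was 54.8 CPM in the TRPM8 group without its shallow nuclei. By library the TRPM8 group stood at 25.5, 28.6, 68.4 and 74.9 CPM in libraries 1, 3, 5 and 6. In library 1 the KIT group was higher, at 34.9 CPM from 5 UMIs.

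IL33, an alarm cytokine stored in the nucleus, was the only ligand of the 9. It was 73.7 CPM in the ADCYAP1 group (64.8 to 83.4), then 49.1 CPM in TRPM8 and 48.8 CPM in unmarked nuclei, which overlapped. PVALB, GFRA2, KIT and NTRK3 lay between 3.47 and 6.70 CPM, and no UMI was found in NTRK2 (the same limit of 5.25 CPM). Without its shallow nuclei the TRPM8 group was at 61.7 CPM (46.2 to 80.8), overlapping the ADCYAP1 group. In the ADCYAP1 group it was 70.8, 107, 72.6, 45.8 and 54.0 CPM in libraries 1, 3, 4, 5 and 6. In the GFRA2 group, high for OSMR, it was 3.13 to 12.9 CPM in the 4 libraries measured.

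Small-fibre groups were then set against large-fibre groups, with a 2-fold ratio and 50 UMIs as the limits of a call. Of 12184 genes with enough UMIs, 5.7% were at least 2-fold higher in the small-fibre groups and 9.87% at least 2-fold lower. Of the 9 itch genes, 4 were higher (IL31RA, CYSLTR2, IL1R1 and IL33) and 1 was lower (HRH2). IL31RA stood at 103 against 12.8 CPM, a ratio of 8.10 (6.14 to 10.9), and was higher in 5 of 5 libraries, but the direction turned when each nucleus was grouped by its own markers (log2 ratio 3.02 against -1.12). IL33 stood at 45.1 against 4.26 CPM, 10.6-fold (6.60 to 18.1), higher in 5 of 5 libraries, with a log2 ratio of 3.41 that was 2.68 without library 3 and 1.196 with each nucleus grouped by its own markers. CYSLTR2 stood at 12.8 against 4.96 CPM, 2.58-fold (1.59 to 4.35), and likewise turned under grouping by single nuclei (log2 ratio 1.37 against -0.38). IL1R1 stood at 13.2 against 5.44 CPM, 2.43-fold (1.53 to 4.00). In the small-fibre groups, CYSLTR2 came mostly from GFRA2 nuclei, with 58 of 95 UMIs, and IL1R1 mostly from TRPM8 nuclei, with 60 of 98. IL1R1 was at 5.28 CPM in the GFRA2 group and 7.07 CPM in the ADCYAP1 group, beside 7.31 CPM in PVALB. CYSLTR2 was at 5.89 CPM in the ADCYAP1 group and 9.14 CPM in PVALB, with overlapping intervals.

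HRH2 was the reverse, at 4.17 CPM in small-fibre and 10.2 CPM in large-fibre groups, 2.44-fold higher in the latter (1.5 to 4.00), and lower in small-fibre groups in 5 of 5 libraries. The 4 others passed neither limit: OSMR at 69.9 and 45.6 CPM, IL6ST at 161 and 193 CPM, JAK1 at 405 and 339 CPM, and HTR1F at 5.65 and 4.73 CPM. OSMR within the small-fibre groups came mostly from GFRA2 nuclei, with 401 of 519 UMIs. Not every call held under other settings: CYSLTR2 fell below 2-fold without library 3 (log2 ratio 0.97), IL1R1 without library 4 (0.95), and HRH2 at a clustering resolution of 0.5 (-0.15).

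Unmarked nuclei were next set against all marked nuclei. Of 13304 genes, 2.39% were at least 2-fold higher in unmarked nuclei and 4.95% at least 2-fold lower. Of the 9 itch genes, 5 were higher. IL31RA was at 893 against 64.3 CPM (13.9-fold, 12.9 to 14.99), CYSLTR2 at 62.6 against 9.57 CPM (6.54-fold, 5.26 to 8.15) and OSMR at 294 against 57.7 CPM (5.10-fold, 4.65 to 5.59). JAK1 was at 1237 against 364 CPM (3.40-fold, 3.27 to 3.54) and HRH2 at 20.1 against 7.73 CPM (2.60-fold, 1.93 to 3.51). Each of the 5 was higher in unmarked nuclei in all 4 libraries that could be compared.

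IL6ST was the gene lower in unmarked nuclei, at 77.0 against 167 CPM, 2.17-fold (1.93 to 2.45), in 4 of 4 libraries. IL33 was at 48.8 against 27.5 CPM (1.78-fold, 1.49 to 2.11), and its log2 ratio of 0.83 became 1.12, past 2-fold, without library 3. IL1R1 (11.4 against 10.5 CPM) and HTR1F (5.92 against 4.90 CPM) passed neither limit. With each nucleus grouped by its own markers, 2 of the 5 genes stayed past 2-fold, IL31RA (log2 ratio 1.35) and CYSLTR2 (1.36), and IL6ST missed it (-0.34).

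**Figure D3:**
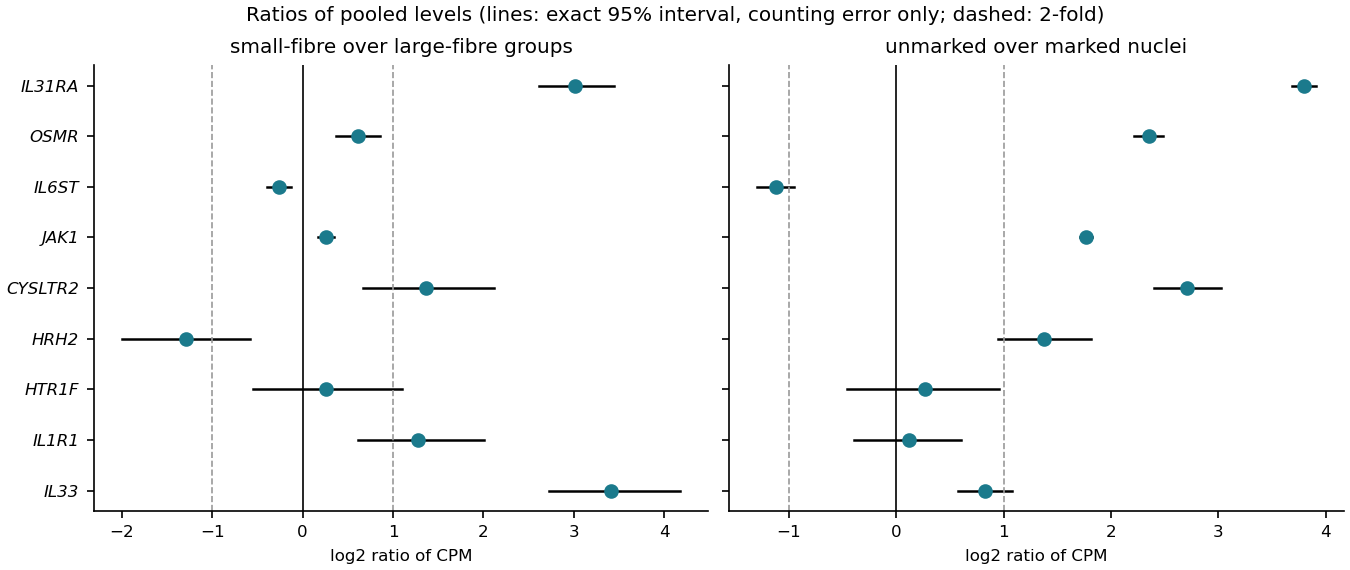
Log2 ratio of pooled CPM (horizontal axis) for each of the 9 genes (vertical axis), small-fibre over large-fibre groups on the left and unmarked over marked nuclei on the right. Points are ratios, lines exact 95% intervals for counting error, dashed lines 2-fold; IL31RA lies at 3.02 and 3.796 and IL6ST at -0.26 and -1.12, while IL31RA and CYSLTR2 on the left turned to -1.12 and -0.38 when each nucleus was grouped by its own markers.

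Co-detection was read in single nuclei, after thinning to 1000 UMIs to set nuclei at 1 depth, and all 36 pairs of the 9 genes were computed. Of 156 nuclei with OSMR, 56 also had IL31RA, which is 35.9% (28.4 to 44.0), against 10.4% of 1908 nuclei without OSMR (9.04 to 11.8). The share was 47.6% at 3000 UMIs and 50.1% without thinning. Read the other way, 22.0% of 254 nuclei with IL31RA had OSMR, against 5.52% of the rest. The pair was found more often together in each of the 4 large libraries by point value: library 1 gave 42.9% against 10.97%, library 3 gave 26.8% against 8.93%, library 5 gave 27.3% against 12.8%, and library 6, with 11 OSMR nuclei, gave 45.5% against 12.1%.

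Where the nuclei with both subunits lay changed with depth. At 1000 UMIs the 3 clusters led by IL31RA held 51 of 56 such nuclei, and without thinning 186 of 277, with 90 in marked nuclei, among them 35 in the GFRA2 group and 31 in the ADCYAP1 group. These clusters were picked by IL31RA in the same counts. Where sets of genes with IL31RA lay, here and below, is thus a description. In the 3 clusters, at 1000 UMIs, 71.8% of OSMR nuclei had IL31RA (51 of 71; 59.9 to 81.9) against 54.0% of the others, with overlapping intervals. The 3 clusters differed in both genes, with OSMR at 660, 309 and 223 CPM and IL31RA at 1640, 1635 and 659 CPM. The part of these differences in the gap was not tested. In marked nuclei 5.95% of 84 OSMR nuclei had IL31RA, against 5.85% of those without OSMR. Without thinning these shares were 25.6% of 352 (21.1 to 30.5) and 17.7% (15.7 to 19.7), and at 3000 UMIs they were 11.6% and 13.1%. In the GFRA2 group 1 of 32 OSMR nuclei had IL31RA at 1000 UMIs, 11 of 61 at 3000 UMIs (18.0%, against 8.15% of those without OSMR) and 35 of 109 without thinning (32.1%, against 11.2%). Nuclei without thinning differ in depth. In large-fibre groups none of 21 OSMR nuclei had IL31RA at 1000 UMIs, which allows up to 16.1% by the exact interval, and 13 of 111 had it without thinning.

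JAK1 was found in 56.3% of nuclei with IL31RA and 30.4% of those without, and in 54.5% of nuclei with OSMR and 31.9% of those without. IL6ST was found in 9.45% of nuclei with IL31RA (6.15 to 13.7) and 13.3% of those without (11.8 to 14.97), and in 14.7% of nuclei with OSMR and 12.7% of those without; both pairs of intervals overlapped. All of IL31RA, OSMR and JAK1 were found in 43 thinned nuclei, 39 of them in the 3 clusters. IL31RA, OSMR and IL6ST were found together in 8 thinned nuclei, each in those clusters, and without thinning in 165, of which 97 lay there, 31 in the GFRA2 group, 19 in the ADCYAP1 group and 9 in the NTRK3 group. CYSLTR2 was found in 34 thinned nuclei, of which 14 had IL31RA (41.2%; 24.6 to 59.3) against 11.8% of the rest. IL33 was found in 76, of which 27.6% had IL31RA against 11.7% of the rest. IL1R1 was found in 23 of 2064 thinned nuclei (1.11%), and none of the 254 IL31RA nuclei had it (up to 1.44%). That limit lies above the share in all thinned nuclei, so this absence could not show whether IL1R1 and IL31RA are found apart. As a pooled level, IL1R1 was at 12.8 CPM in the 3 clusters led by IL31RA. It was at 10.2 CPM in all other nuclei, a ratio of 1.26 (0.882 to 1.77). Of its 46 UMIs in those clusters, 42 lay in the cluster of 113 nuclei.

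**Figure D4:**
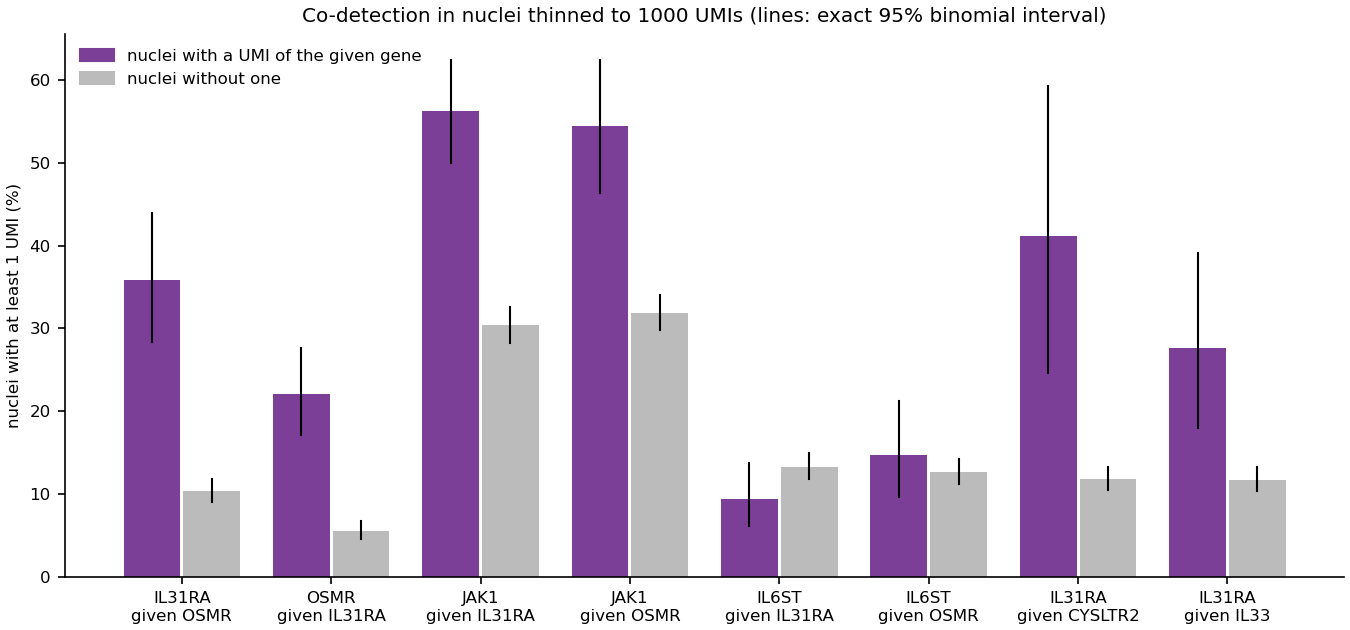
Share of nuclei (vertical axis, %, from 0) with at least 1 UMI of a first gene among nuclei with (purple) and without (grey) a UMI of a second gene (pairs on the horizontal axis), in 2064 nuclei thinned to 1000 UMIs. Lines are exact 95% binomial intervals; IL31RA is at 35.9% and 10.4% with and without OSMR, and IL6ST at 9.45% and 13.3% with and without IL31RA.

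Over the 29 units of marker group and library with at least 10 nuclei, on log2 CPM centred within library, JAK1 and CYSLTR2 were the most alike pair of the 6 genes with 200 or more UMIs (Pearson r 0.87). IL31RA went with JAK1 (0.71), CYSLTR2 (0.70), IL33 (0.60) and OSMR (0.53), and against IL6ST (-0.46). These units share libraries and sequencing depth, so the values are a description, and an unmarked unit pools the fourth cluster with the 3 led by IL31RA. Outside the 9 genes, the rows most like IL31RA were TRPV1 (r 0.88), FARP2, SEMA3G, PKP2 and CBLB. Those most like OSMR were TRARG1 (0.89), AHNAK, LIFR (0.86), NOL11 and DAPP1, of which LIFR encodes a gp130 partner. IL6ST was most like PAQR9, MCAM and SYTL2, JAK1 like KLHL14, IL17RD and UNC5D, CYSLTR2 like KLHL14, FARP2 and SLC5A7, and IL33 like a row named only ENSSSCG00000043354 (0.92), PDE5A and FNDC3A. Some of these likenesses rest on that pooling. TRPV1 had 133 of its 268 UMIs in unmarked nuclei in the fourth cluster, at 213 CPM against 37.6 CPM in the 3 others, and UNC5D stood at 2927 against 59.5 CPM, while in the fourth cluster IL31RA was at 14.4 CPM and JAK1 at 291 CPM. With the fourth cluster left out, a setting chosen after seeing the data, TRPV1 was 11th for IL31RA (r 0.81), UNC5D 410th for JAK1 (0.45) and PDE5A 16th for IL33 (0.82). FARP2 then came first for IL31RA (0.88) and KLHL14 and IL17RD stayed first and second for JAK1.

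Among 42 further genes of gp130 and JAK-STAT signalling, 24 had enough UMIs for small against large fibres: 4 were higher and 2 lower, with a median log2 ratio of 0.11 against -0.11 over all genes. The 4 are 16.7% of the 24, beside 5.7% of all genes, and the 2 are 8.33%, near the 9.87% of all genes. STAT6, a transcription factor of the interleukin-4 pathway, was 2.65-fold higher (35.1 against 13.2 CPM), IL10RB 2.58-fold and STAT5B 2.40-fold. JAK3 was 4.39-fold and IL6R, the interleukin-6 receptor, 2.14-fold lower, though IL6R was higher in small-fibre groups in 1 of 4 libraries. In unmarked against marked nuclei none of 25 was higher and JAK3 alone was lower, with a median of -0.07 against -0.01, and JAK1, 3.40-fold higher there, stood beside JAK2 at a ratio of 0.944 and TYK2 at 1.18. JAK3 alone is 4% of the 25, near the 4.95% of all genes lower there. Of 20 interleukin-1 family genes 11 could be compared, with median log2 ratios of -0.17 for small against large fibres and 0.01 for unmarked against marked nuclei; IRAK2 and TOLLIP, which act below the receptor, were 2.10-fold and 2.17-fold lower in small-fibre groups but each was higher there in 2 of 5 libraries, and none of 11 passed a limit in unmarked nuclei. IRAK2 and TOLLIP were 18.2% of the 11, beside 9.87% of all genes lower in small-fibre groups. IL1RAP, the partner of IL1R1, stood at 16.6 against 10.4 CPM in small against large fibres.

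Among 18 genes of histamine and serotonin signalling, 2 of 7 were higher in small-fibre groups and 2 lower (median log2 ratio -0.08), and in unmarked nuclei 1 of 8 was higher and 1 lower (median -0.20). The 2 of 7 are 28.6%, beside 5.7% higher and 9.87% lower over all genes. The 1 of 8 is 12.5%, beside 2.39% and 4.95%. HRH1, another histamine receptor, was 3.33-fold higher in small-fibre groups (78.6 against 23.6 CPM) and 3.06-fold higher in unmarked nuclei (171 against 55.7 CPM). HRH1 was thus higher in small-fibre groups where HRH2 was lower, and both were higher in unmarked nuclei. HTR1E was 4.13-fold higher in small-fibre groups and HTR4 and HTR7 were 4.71-fold and 4.32-fold lower. HTR7 was also lower in unmarked nuclei, 2.53-fold. Of 9 leukotriene genes 3 could be compared and none passed a limit, with median log2 ratios of -0.33 and 0.04; CYSLTR1 stood at 5.92 against 5.74 CPM in unmarked and marked nuclei, where CYSLTR2 was at 62.6 against 9.57 CPM.

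Of 19 itch effectors, 6 of 12 were higher in small-fibre groups and 1 lower, and 5 of 13 were higher in unmarked nuclei and 1 lower. Those higher were 50% and 38.5%, beside 5.7% and 2.39% of all genes. Those lower were 8.33% and 7.69%, beside 9.87% and 4.95% of all genes. The median log2 ratios were 1.13 against -0.11 and 0.66 against -0.01 over all genes. The peptides NMB and SST were 5.25-fold and 5.02-fold higher in unmarked nuclei (454 against 86.4 CPM and 50.01 against 9.96 CPM), and the channel TRPV1 4.41-fold. They were uneven over the unmarked clusters. NMB was at 1598, 567 and 53.8 CPM in the 3 clusters led by IL31RA, the last from libraries 5 and 6 and below the marked nuclei, and at 131 CPM in the fourth. SST was at 211, 22.4 and 1.84 CPM in the same 3 clusters and could be compared within 2 libraries only. A list of 4 itch-type neuron markers summed to 3496, 1092 and 99.7 CPM in these clusters, against 215 CPM in marked nuclei. High sums were not particular to them. An ADCYAP1 cluster, with all 80 nuclei from library 1, reached 1313 CPM and the shallow TRPM8 cluster 891 CPM. The cluster at 3496 CPM also had 71 of its 72 nuclei from library 1. TRPV1 (7.78-fold), TAC1, the substance P precursor (4.31-fold), and NPPB, an itch peptide (3.86-fold), had the largest ratios in small-fibre groups. PLCB1, a phospholipase, was lower in both comparisons, 4.13-fold and 2.13-fold.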

How the data were processed

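The authors deposited 1 table of raw UMI counts per gene and nucleus, with no normalization. The submitters' processing notes list Cell Ranger 6.0.1, Seurat and the pig build Sscrofa11.1 but no steps; filters and doublet removal are not given in the sources used here, and no doublets were called. Of 14012 rows with an Ensembl identifier, 773 could be given a symbol by name table. No barcode was shared between libraries.

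Counts were set to 10000 per nucleus, log-transformed and clustered in scanpy 1.11.5 (2000 variable genes less the listed ones, leaving 1988; 30 principal components, 15 neighbours, Leiden resolution 1), giving 23 clusters. A cluster took the marker with the largest ratio against other nuclei of its libraries, if at least 2-fold with 10 UMIs (10 CPM added). Ratios have exact conditional binomial intervals and shares exact Clopper-Pearson ones, at 95%. Within libraries, ratios needed 10 nuclei a side and 10 UMIs. The calculation was tested on simulated data. The 9 genes and all lists were chosen with earlier results of these data known. Pathway genes were named by rule: up to 3 of each list with the largest ratio each way, past 2-fold with 50 UMIs. Likeness was ranked among genes with 200 UMIs (5 for IL31RA and OSMR, 3 otherwise), so HRH2, HTR1F and IL1R1 have none.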

Additional observations from a re-analysis of the deposited data

How the results depend on the processing

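Of 311 log2 ratios of the 9 genes under alternatives, 232 stayed within the counting interval of the reported ratio, 77 moved further and 2, both past 2-fold as reported, turned direction. The 2 were IL31RA (-1.12) and CYSLTR2 (-0.38), small against large fibres, with each nucleus grouped by its own markers. That grouping also left 2 genes higher in small-fibre groups (4 as reported) and 2 higher in unmarked nuclei (5 as reported); the cause was not tested. Leaving out 1 library at a time gave 3 to 4 genes higher in small-fibre groups, 5 to 6 higher in unmarked nuclei and 30.2% to 39.1% of OSMR nuclei with IL31RA, which was 47.6% at 3000 UMIs and 50.1% without thinning. IL1R1, unmarked against marked, ranged from -2.35 to 0.33 on the log2 scale, and was -0.97 without library 6, while HTR1F ranged from -1.37 to 0.49. Among ratios under 2-fold as reported the sign changed in 15 values of 5 ratios: these 2, and OSMR (to -0.68), JAK1 (to -0.63) and HTR1F (to -0.56), small against large. At a resolution of 0.5, JAK1 was 2.57 and IL33 1.34 in unmarked nuclei, and IL6ST missed 2-fold at 0.5 (-0.90) and 1.5 (-0.76). CYSLTR2, small against large, was 0.52 by the mean over nuclei.

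Of the alternatives, 3 were chosen after seeing the data. With only the 3 clusters led by IL31RA in place of all unmarked nuclei, its log2 ratio was 4.02. Likeness was also ranked without the fourth unmarked cluster, as the report gives. A first clustering, in which list genes were matched by deposited row names only, was replaced by the one reported after its levels had been seen, because some list genes had stayed among its features. It gave 3.60 for IL31RA, 2.60 for OSMR, 2.16 for JAK1 and -2.35 for IL1R1 in unmarked nuclei, and 4 and 6 genes higher in the 2 comparisons. No paired analysis was possible because no test was run and barcodes name no pig; nuclei were compared within libraries instead. HRH2, HTR1F and IL1R1, with 186, 89 and 185 UMIs, are limited by depth.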
